A study of Mus musculus with 32 samples.

Results

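The Schwann cell and myelin genes examined here are *Sox10*, *Ngfr*, *S100b*, *Pmp22*, *Mbp* and *Prx*. They were taken by name, 6 of the 54838 genes in the table of expected counts, and all 6 were measured in all 32 libraries. RNAseq was performed on the tibialis anterior (TA), a fast muscle of the lower leg, with 4 libraries per genotype (WT or *Mtm1* KO) and age. The ages were P1, P14, P21 and P35, in postnatal days. *Mtm1* encodes myotubularin, the lipid phosphatase lost in X-linked myotubular myopathy. The KO mice carry a constitutive deletion in *Mtm1* that is present in every cell, Schwann cells and neurons included, and both genotypes share the strain background C57BL6/J. No other allele and no treatment is named for any group. Whole muscle was used, so each library also holds RNA from intramuscular nerve, vessels, fat and connective tissue. In such bulk RNA, fewer cells of a type and less RNA per cell cannot be told apart.

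Schwann cells ensheathe the axons of peripheral nerve. Those that myelinate wrap a large axon in compact membrane built from a few abundant proteins and glycolipids, whereas others hold bundles of small axons without myelin or cap the motor nerve terminal at the neuromuscular junction. *Sox10* is the transcription factor that defines the lineage, *Ngfr* encodes the p75 neurotrophin receptor, which immature, non-myelinating and denervated Schwann cells carry and which is also made by some non-glial cells, and *S100b* encodes a calcium-binding protein of Schwann cells that fat cells also make. *Pmp22* and *Mbp* encode proteins of compact myelin, and *Prx* encodes periaxin, which links the Schwann cell membrane to its basal lamina. *Pmp22* is also transcribed outside nerve, and the *Mbp* locus has further products, the golli proteins, which are not confined to myelin.

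In the KO muscle at P35 all 6 genes had a higher mean than in WT, by 1.80-fold for *Ngfr* to 3.28-fold for *S100b*, but only *Ngfr* passed the test for a changed gene. The other 5 varied together from library to library over such a range, within WT as well as within KO, that their groups overlapped. Over the 32 libraries together *Ngfr* did not follow them. Its level fell from P1 to P14 in both genotypes, and at P21 and P35 its KO libraries all lay above its WT libraries. Such separation, in either direction, held for 21.4% of genes at P21 and 34.9% at P35.

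*Prx* and *Pmp22* are a pair of genes whose levels varied together across the libraries. Over the 32 libraries as a whole *Ngfr* varied with neither. Upstream regions of these 3 genes are printed. Each is the run of 250 bases before a transcription start of RefSeq on GRCm38.p6, the build of the deposited table, written 5′ to 3′ along the gene.
*Prx*, chr7:27499074-27499323, plus strand: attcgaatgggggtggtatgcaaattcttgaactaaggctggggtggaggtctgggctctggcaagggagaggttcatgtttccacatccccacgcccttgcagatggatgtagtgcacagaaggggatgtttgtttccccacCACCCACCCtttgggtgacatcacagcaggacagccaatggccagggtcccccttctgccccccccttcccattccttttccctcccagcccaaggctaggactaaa
*Pmp22*, chr11:63128732-63128981, plus strand: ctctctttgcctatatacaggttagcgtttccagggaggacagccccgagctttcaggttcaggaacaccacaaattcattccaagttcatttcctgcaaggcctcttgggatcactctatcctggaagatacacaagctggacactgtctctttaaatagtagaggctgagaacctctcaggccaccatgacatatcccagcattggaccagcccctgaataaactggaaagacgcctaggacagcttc
*Ngfr*, chr11:95587699-95587948, minus strand: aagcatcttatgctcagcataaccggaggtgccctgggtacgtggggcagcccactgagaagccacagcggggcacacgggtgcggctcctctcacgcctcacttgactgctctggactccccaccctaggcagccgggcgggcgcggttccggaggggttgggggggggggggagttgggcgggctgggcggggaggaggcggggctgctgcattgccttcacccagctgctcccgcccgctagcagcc

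Letters in capitals mark a match to 1 of 3 short motifs searched on both strands: ACAAAG and ACAATG, which are cores bound by SOX proteins, and GNGTGGGNG, a loose form of the site of EGR proteins such as EGR2. The *Prx* region held 1 match, to the EGR form, beginning 107 bases before the start. No letters of the 3 motifs were found in the windows of *Pmp22* and *Ngfr*, nor in that of *S100b*. *Pmp22* has 4 starts in RefSeq, of which the most upstream is printed, and the windows of the other 3 also held no match. Of 32851 such windows over all genes, 35.3% held at least 1 of the motifs, 16.5% ACAAAG, 10.7% ACAATG and 12.7% the EGR form. A match of this kind is a description of letters. *Sox10* and *Mbp* are named without a sequence.

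The genes lie apart in the genome. On GRCm38, in the GENCODE M21 annotation, *Sox10* spans 79154908 to 79165240 on the minus strand of chromosome 15, *Prx* spans 27499324 to 27520214 on the plus strand of chromosome 7, and *S100b* spans 76253853 to 76261159 on the plus strand of chromosome 10. *Pmp22* (63128982 to 63159547, plus strand) and *Ngfr* (95568818 to 95587735, minus strand) are both on chromosome 11. *Dip2a* overlaps *S100b* on the opposite strand and had a log2 fold change of KO over WT of -0.29 at P35 (adjusted *P*=0.112 by edgeR's quasi-likelihood test), a difference opposite in sign to that of *S100b*. *Gm15541* overlaps *Prx* on the opposite strand and stayed at or below 0.534 CPM in every library.

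Library totals ran from 49321035 to 85631408 counts. Levels are CPM, counts scaled to library size with TMM factors over the 32 libraries, and a gene was called when edgeR's quasi-likelihood test gave a Benjamini-Hochberg adjusted *P*-value under 0.01 with a change of over 1.5-fold. *Mtm1* itself was at 3.32 to 3.95 CPM in the KO libraries and 20.7 to 24.9 CPM in the WT libraries at P35, and the genotypes did not overlap in *Mtm1* at any age. Of 6 markers of oligodendrocytes, the myelinating cells of the brain, 1 (*Sox8*) had counts enough to be tested. *Opalin* was at 0 in 6 of the 8 groups and *Mog* never exceeded 0.117 CPM. The 6 together summed to 5.75 to 13.65 CPM in KO at P1 and 5.22 to 11.6 CPM in WT at P14. In KO at P35 they summed to 1.73 to 3.30 CPM. The muscle fibre markers *Acta1*, *Ckm* and others summed to 52920 CPM or more in each P35 library. At P1 the libraries also carried skin and cartilage transcripts, with keratinocyte markers summing to 1765 to 6533 CPM, against at most 6.39 CPM at any later age. Their part in the P1 values was not tested.

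Per kilobase of exon, *Pmp22* was the most abundant of the 6 in every group, at 34.6 ± 21.6 CPM per kb in WT at P35 (SD, n = 4) and 78.7 ± 41.6 in KO. *Mbp* and *Prx* followed at P14, P21 and P35, and these neighbours were closer than their spread, for example 4.58 ± 4.0 and 4.38 ± 3.39 CPM per kb in WT at P35. The length counts all annotated exons, 8469 bases for *Mbp* and 5579 for *Prx*, so this closeness depends on the length used. In CPM *Mbp* was at 38.8 ± 33.8 and *Prx* at 24.4 ± 18.9 in the same group. *S100b*, *Sox10* and *Ngfr* were the lowest from P14 onwards, between 0.552 and 4.92 CPM per kb in group means. At P1 the order differed, because *Ngfr* stood second with 8.87 ± 0.656 CPM per kb in WT and 7.36 ± 0.684 in KO, above *Prx* and *Mbp*.

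**Figure D1:**
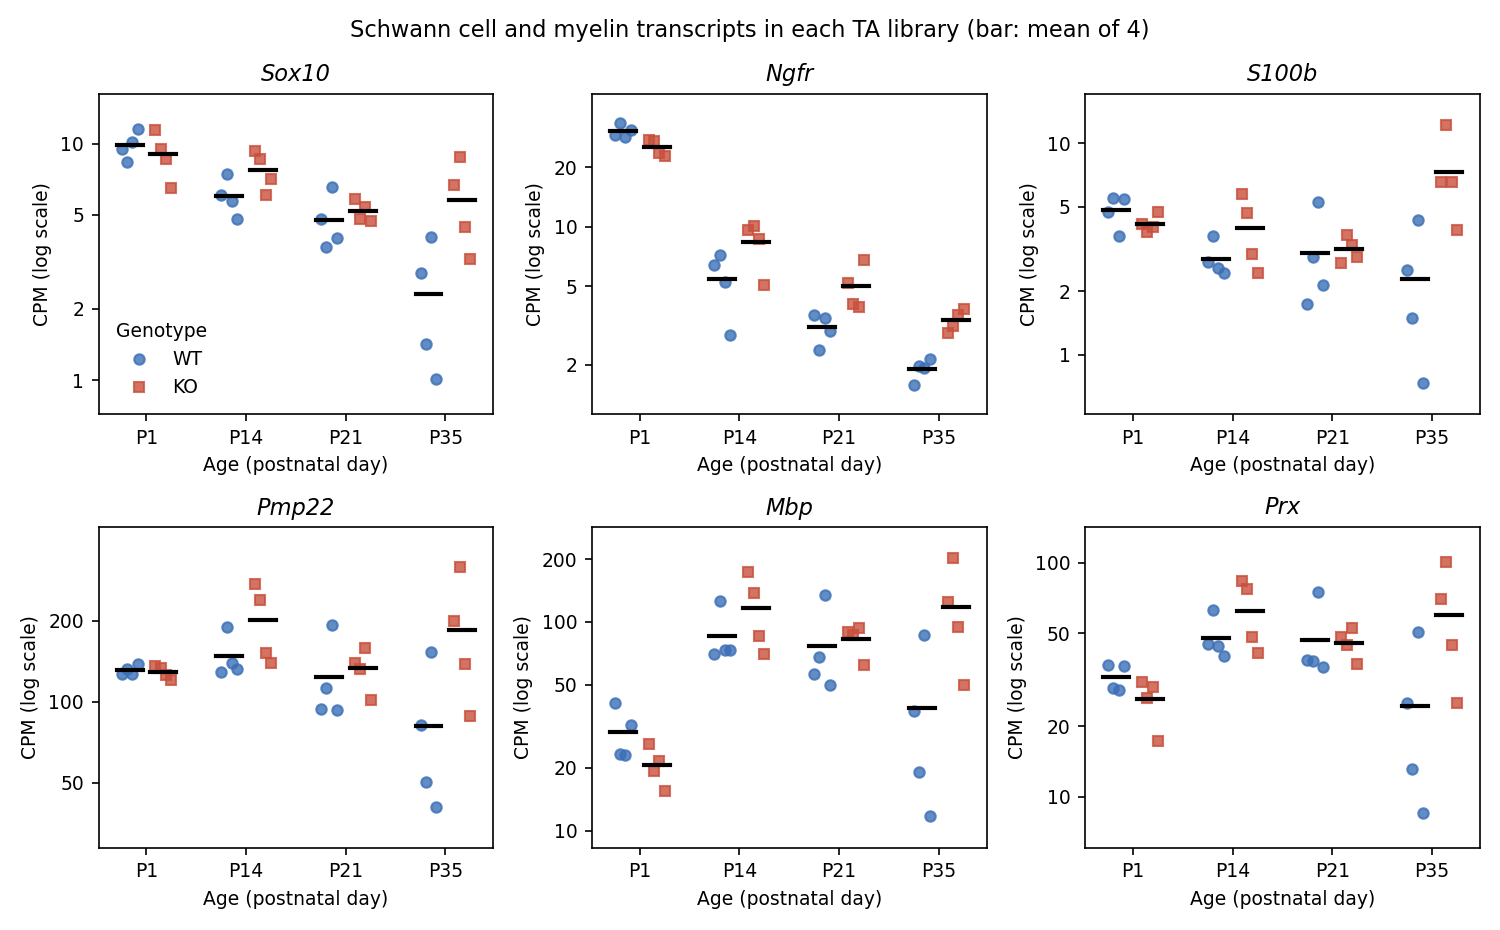
CPM of the 6 genes in each of the 32 libraries (log axis) by age, with WT as blue circles, KO as red squares and the mean of 4 libraries as a bar. *Ngfr* steps down at each age with the 4 KO libraries above the 4 WT libraries at P21 and P35, whereas the other 5 genes spread widely within both genotypes at P35.

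*Ngfr* was the only called member in the comparison of KO with WT at P35. Its WT libraries were at 1.58, 1.97, 1.92 and 2.14 CPM and its KO libraries at 2.89, 3.14, 3.58 and 3.85 CPM. Every KO library was above every WT library. The log2 fold change was 0.84 ± 0.15 (SE, n = 4 per genotype, 95% interval 0.50 to 1.19, adjusted *P*=0.0023 by edgeR's quasi-likelihood test). This makes 1 of 6 members called higher and 0 lower, where 16% of the 15595 genes tested were called in either direction. Without KO library 3 the adjusted *P*-value of *Ngfr* was 0.0103 by edgeR and its log2 fold change 0.80, which ends the call. With each library left out in turn its adjusted *P*-value by edgeR ran from 0.00343 to 0.0103.

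At P21 the WT libraries held 3.59, 2.38, 3.43 and 2.96 CPM of *Ngfr* and the KO libraries 5.21, 4.08, 3.94 and 6.76 CPM. The groups again did not overlap, and KO library 4 was the highest. The log2 fold change of 0.70 ± 0.20 (95% interval 0.26 to 1.15) had an adjusted *P*-value of 0.0334 by edgeR's quasi-likelihood test and was not called. In this comparison 0 of 6 members were called by edgeR, 1 (*Ngfr*) had an unadjusted *P*-value under 0.05 and 1 (*Ngfr*, adjusted *P*=0.00899) was called by DESeq2, against 4.67% of 15179 genes called by edgeR.

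At P14 *Ngfr* measured 6.40, 7.19, 5.26 and 2.84 CPM in the WT libraries, against 9.66, 10.1, 8.67 and 5.09 CPM in the KO libraries. The fourth library of each genotype was the lowest, and KO library 4 lay inside the WT range. KO over WT gave a log2 fold change of 0.63 ± 0.30 (95% interval -0.05 to 1.3, adjusted *P*=0.760 by edgeR's quasi-likelihood test). Libraries with the same number deviated together at this age, and when that number entered the model as a block the log2 fold change of *Ngfr* was 0.64 with an adjusted *P*-value of 0.00187 by edgeR, which passes the threshold. Over all settings tried its adjusted *P*-value by edgeR or DESeq2 reached from 0.00187 to 0.800, and from 0.423 with 1 library left out. No member passed without the block, none had an unadjusted *P*-value under 0.05 and DESeq2 called 0, where edgeR called 0.0318% of 15728 genes.

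At P1 the direction was the opposite. *Ngfr* was at 29.1, 33.6, 28.6 and 31.1 CPM in WT. All 4 KO libraries were lower, at 27.4, 27.3, 23.8 and 22.9 CPM. The difference was small, with a log2 fold change of -0.25 ± 0.08 (95% interval -0.44 to -0.07, adjusted *P*=0.302 by edgeR's quasi-likelihood test). Of the 6 members 0 were called at P1 by edgeR or DESeq2 and 2 (*Ngfr* and *Mbp*) had an unadjusted *P*-value under 0.05, where edgeR called 0.0442% of 18100 genes. *Ngfr* alone among the members had genotypes that did not overlap, lower in KO at the first age and higher in KO at P21 and P35. Such separation, in either direction, held for 8.49% of 18583 genes at P1. The share was 4.52% for P14, 21.4% for P21 and 34.9% for P35.

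The change of the *Ngfr* genotype difference between ages was not called. From P1 to P14 it moved by 0.90 ± 0.29 on the log2 scale (adjusted *P*=0.534 by edgeR's quasi-likelihood test of the interaction), and from P21 to P35 by 0.13 ± 0.32 (adjusted *P*=0.882).

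*Sox10*, the lineage-defining factor, measured 2.85, 1.43, 4.01 and 1.01 CPM in the WT libraries at P35, against 6.69, 8.76, 4.43 and 3.24 CPM in the KO libraries. WT library 3 was the highest WT library and exceeded KO library 4, the lowest of its group. KO over WT gave a log2 fold change of 1.34 ± 0.44 (95% interval 0.35 to 2.33, adjusted *P*=0.0354 by edgeR's quasi-likelihood test). At P21 the difference was 0.13 (95% interval -0.28 to 0.55) and at P14 0.37 (-0.02 to 0.76), neither called.

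*S100b* had the largest fold change of the 6 at P35. WT libraries were at 2.51, 1.5, 4.34 and 0.738 CPM, and KO libraries at 6.59, 12.2, 6.57 and 3.88 CPM. KO library 4 lay below WT library 3, and all other KO libraries were above all WT libraries. The log2 fold change of 1.71 ± 0.50 (95% interval 0.59 to 2.84) had an adjusted *P*-value of 0.0218 by edgeR's quasi-likelihood test. At P21 it was 0.07 (95% interval -0.63 to 0.78).

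*Mbp* at P35 ranged from 11.7 to 86.9 CPM in WT (37.4, 19.1, 86.9 and 11.7) and from 49.8 to 202 CPM in KO (125, 202, 94.3 and 49.8). WT library 3 was higher than KO library 4, and the highest WT library was 7.43 times the lowest. The log2 fold change was 1.63 ± 0.61 (95% interval 0.26 to 3.0, adjusted *P*=0.0566 by edgeR's quasi-likelihood test).

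*Pmp22* measured 82.0, 50.4, 153 and 40.5 CPM in the WT libraries at P35, against 199, 316, 138 and 88.5 CPM in the KO libraries. *Prx* measured 25.3, 13.2, 50.7 and 8.58 CPM in the WT libraries, against 69.8, 101, 44.8 and 25.2 CPM in the KO libraries. In both genes WT library 3 exceeded KO libraries 3 and 4, so the groups overlapped. Log2 fold changes were 1.21 ± 0.47 for *Pmp22* (95% interval 0.15 to 2.27, adjusted *P*=0.0649 by edgeR's quasi-likelihood test) and 1.32 ± 0.56 for *Prx* (0.06 to 2.58, adjusted *P*=0.0859).

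The P35 count depended on the libraries and on the model. All 6 members had an unadjusted *P*-value under 0.05, edgeR called 1, DESeq2 called 2, and 1 edgeR fit of all 32 libraries, in which the other ages share in the estimate of the spread, called 6. The 16% of all genes called at P35 belongs to the pairwise edgeR fit, and the shares under the other models are not given here. WT library 3 was the highest WT library for all members other than *Ngfr*. Without it 3 members were called, with log2 fold changes of 2.40 for *Mbp* and 2.23 for *S100b* beside *Ngfr*. KO library 2 was the highest of its group for the same 5 genes and also carried cartilage transcripts, with a marker sum of 151 CPM against 4.16 to 13.3 CPM in the other KO libraries. Without it the log2 fold changes were 0.81 for *Pmp22*, 0.94 for *Prx*, 1.06 for *Sox10*, 1.22 for *Mbp*, 1.34 for *S100b* and 0.87 for *Ngfr*.

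At the younger ages the 5 genes differed less between genotypes. At P14 their log2 fold changes lay between 0.37 and 0.48. At P21 they lay between -0.03 and 0.13, at P1 between -0.52 and -0.01, and none was called. The 95% intervals at P21 reached from -0.63 to 0.78, so a difference of 1.5-fold in either direction was within them for *S100b* and in the upward direction for *Mbp* and *Pmp22*. The growth of the genotype difference from P21 to P35 was 1.62 ± 0.53 on the log2 scale for *S100b* (adjusted *P*=0.0986 by edgeR's quasi-likelihood test of the interaction), 1.5 ± 0.62 for *Mbp* (adjusted *P*=0.200) and 1.19 ± 0.42 for *Sox10* (adjusted *P*=0.130). Of 6 members 0 were called in this interaction by edgeR, with an unadjusted *P*-value under 0.05 in 5 and 0 called by DESeq2, and edgeR called 0.463% of 18583 genes. The interaction of P21 with P14 also called 0 members (0 by DESeq2, 0 with an unadjusted *P*-value under 0.05) against 0.425% of genes, and that of P14 with P1 0 members (0 by DESeq2, 1 with an unadjusted *P*-value under 0.05) against 0.0161%.

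**Figure D2:**
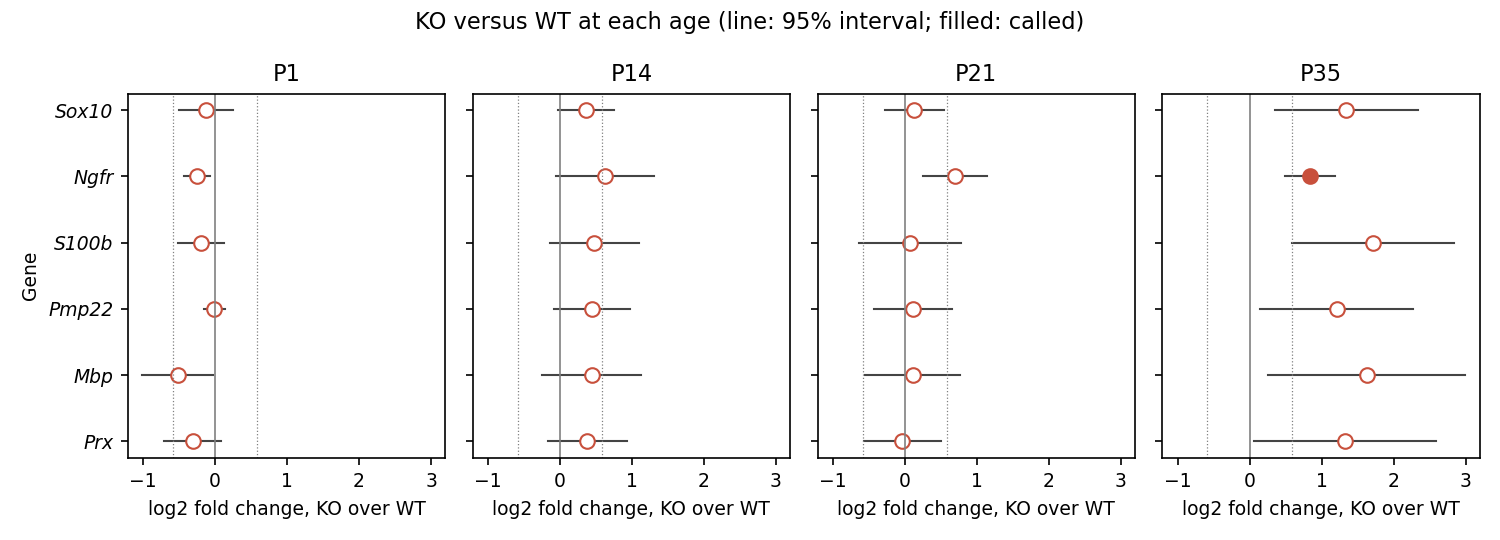
Log2 fold change of KO over WT for the 6 genes at each age, with 95% intervals as lines, filled points for called genes and dotted lines at the 1.5-fold change that a call requires. *Ngfr* at P35 is the only filled point, and its interval, 0.50 to 1.19, is narrower than those of the other 5 genes at that age.

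The age comparisons gave different directions for single members. Each age is a separate set of libraries, so age cannot be told apart from any unlabelled run. From P1 to P14 *Mbp* rose in both genotypes relative to all genes, from 29.8 ± 8.46 to 85.9 ± 27.1 CPM in WT (SD, n = 4) and from 20.6 ± 4.44 to 117 ± 47.1 CPM in KO. The log2 fold changes were 1.52 ± 0.24 in WT (adjusted *P*=0.000251 by edgeR's quasi-likelihood test) and 2.48 ± 0.29 in KO (adjusted *P*=3.88e-05). *Prx* rose in KO from 26.1 ± 6.12 to 62.4 ± 20.9 CPM (log2 fold change 1.23 ± 0.25, adjusted *P*=0.00156 by edgeR). In WT *Prx* was at 32.7 ± 4.29 and 47.9 ± 10.2 CPM, and its log2 fold change of 0.54 had an adjusted *P*-value of 0.00635 by edgeR but was below the 1.5-fold required. Whether these steps differed between genotypes was tested in the interaction above, which was not called for either gene. Its SE, from a spread shared by all ages, was 0.62 for *Mbp* and 0.54 for *Prx*.

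*Ngfr* fell over the same interval, from 30.6 ± 2.26 to 5.42 ± 1.90 CPM in WT and from 25.4 ± 2.36 to 8.39 ± 2.28 CPM in KO. The log2 fold change was -2.50 ± 0.23 in WT (adjusted *P*=5.68e-06 by edgeR's quasi-likelihood test) and -1.62 ± 0.19 in KO (adjusted *P*=4.1e-05). *S100b* and *Sox10* were called lower in WT, by -0.77 ± 0.17 (adjusted *P*=0.00232 by edgeR) and -0.73 ± 0.14 (adjusted *P*=0.000892), but not in 1 fit of all 32 libraries (adjusted *P*=0.0607 and 0.0241 by edgeR). In KO their log2 fold changes were -0.10 (95% interval -0.65 to 0.45) and -0.24 (-0.67 to 0.18).

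From P1 to P14, 1 member was thus called higher and 3 lower in WT, where 55.1% of 17435 genes were called, and 2 higher and 1 lower in KO, where 52.6% of 17719 genes were called. DESeq2 called 4 members in each genotype, in KO also *Pmp22*. In KO *Pmp22* had a log2 fold change of 0.61 ± 0.21 (adjusted *P*=0.0212 by edgeR), with 129 ± 7.01 CPM at P1 and 201 ± 65.6 CPM at P14. In WT it had the smallest log2 fold change of the 6, with 131 ± 5.19 CPM at P1 and 147 ± 28.0 CPM at P14, and its direction depended on scaling: 0.16 after TMM scaling and -0.60 with library totals. Under library totals the median of all genes moved from -0.08 to -0.85 in this comparison, and *Pmp22* stood above the median under both. With library totals *Mbp* in WT (0.76, adjusted *P*=0.0251 by edgeR) and *Prx* in KO (0.56, adjusted *P*=0.0854) lost their calls, and *Prx* in WT was at -0.22.

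After P14 no step was called in either genotype. In WT, edgeR called 0 of 6 members from P14 to P21, with an unadjusted *P*-value under 0.05 in 1 (*Ngfr*) and 0 called by DESeq2, where 5.53% of 15337 genes were called. From P21 to P35 in WT it called 0, with 2 (*Ngfr* and *Sox10*) under 0.05 unadjusted and 1 called by DESeq2, where 2.45% of 15039 genes were called. All 6 log2 fold changes in this last WT step were below 0, from -1.05 for *Sox10* to -0.43 for *S100b*. In KO, edgeR called 0 members from P14 to P21, with 3 under 0.05 unadjusted and 1 by DESeq2, where 7.04% of 15585 genes were called. From P21 to P35 in KO it called 0, with 2 under 0.05 unadjusted and 1 by DESeq2, where 4.01% of 15734 genes were called.

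In this last KO step 5 of the 6 log2 fold changes were above 0. *S100b* stood at 1.23 ± 0.30 (adjusted *P*=0.0193 by edgeR's quasi-likelihood test), with P21 libraries at 2.72, 3.68, 3.30 and 2.91 CPM and P35 libraries at 6.59, 12.2, 6.57 and 3.88 CPM. *Ngfr* was the member below 0, at -0.56 ± 0.19 (adjusted *P*=0.0588 by edgeR).

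The library-to-library variation was itself ordered. After subtraction of the mean of each group of 4, the log2 CPM of *Prx* and *Mbp* correlated over the 32 libraries with Pearson's r of 0.977 (Spearman's rho 0.960), and *Prx* and *Pmp22* with r of 0.961 (rho 0.952). Among the 10 pairs of members other than *Ngfr*, r ran from 0.790 to 0.977. These values are descriptions without a test, since all points share the library, its dissection and its depth. Without the 2 libraries whose *Prx* deviation was farthest from the median, r of *Prx* with *Sox10* was 0.921, against 0.950 with them. For *S100b* with *Sox10*, the weakest of the 10 pairs, leaving out the 2 libraries farthest in *S100b* lowered r from 0.790 to 0.654, and rho was 0.638. Without the 8 libraries of P1, r of *Prx* with *Mbp* was 0.987.

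Over the 32 libraries together *Ngfr* did not take part. Its r with the other 5 members lay between 0.0181 and 0.0745, and between 0.00747 and 0.0619 without the P1 libraries. Within single groups the relation differed, and the r near 0 pools them. At P14 library 4 was the lowest for *Prx* and *Ngfr*, at 39.8 and 2.84 CPM in WT. The same held in KO, at 41.1 and 5.09 CPM. In KO at P35 library 4 was the lowest for *Prx* (25.2 CPM) and the highest for *Ngfr* (3.85 CPM). In WT at P35, *Prx* varied 5.91-fold between libraries and *Ngfr* 1.36-fold. *Ngfr* varied more than *Prx* in WT at P14 (2.53-fold against 1.58-fold) and in KO at P21 (1.72-fold against 1.42-fold).

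**Figure D3:**
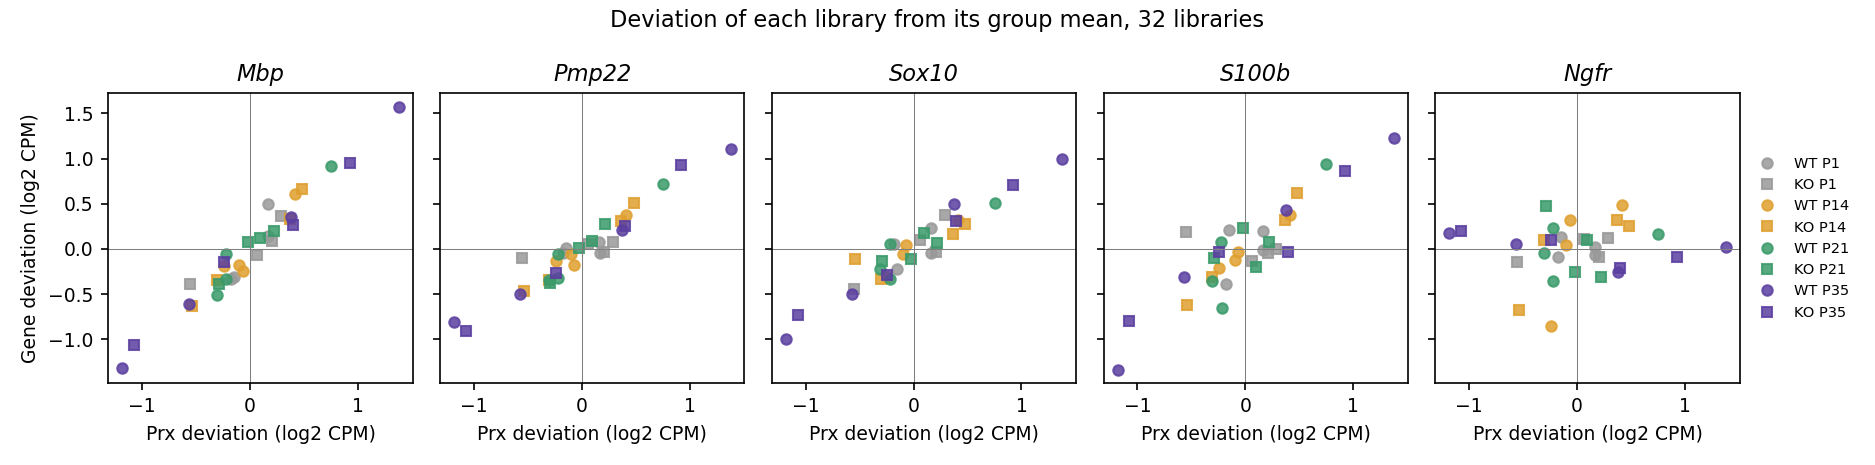
Deviation of each library from the mean of its group in log2 CPM, for *Prx* on the x axis and *Mbp*, *Pmp22*, *Sox10*, *S100b* and *Ngfr* on the y axes, with ages by colour, WT as circles and KO as squares. *Mbp* lies along a line with *Prx* (r of 0.977) and *Ngfr* does not (r of 0.0662).

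The genes whose deviations were most like those of the members, among 13520 genes with a mean of at least 1 CPM, included other myelin genes. For *Prx* they included *Mbp*, *Ugt8a* (r of 0.972), an enzyme of myelin glycolipid synthesis, *Pmp22* and *Kif19a* (0.958). For *Mbp* they included *Ugt8a* (0.988), *Prx*, *Pmp22* and *Gas2l3* (0.944). For *Pmp22* they were *Gas2l3* (0.969), *Vat1l* (0.961), *Prx*, *Mbp* and *Ugt8a* (0.950). *S100b* was most like *Vat1l* (0.921), *Pmp22*, *Mbp*, *Gas2l3* (0.901) and *Mal* (0.896), and *Sox10* was most like *Prx*, *Kif19a* (0.943), *Sfrp5* (0.933), *Cldn19* (0.928) and *Plxnb3* (0.925). Of the 50 most similar genes, 16 to 19 were on the Schwann cell lists for each of these 5 members. The members themselves are counted in those lists, so part of the count restates the correlations above.

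For *Ngfr* none of the 50 was on those lists. Its closest genes were *Tet1* (0.857), *Qprt* (0.841), *Klf14* (0.832), *Fubp3* (0.823) and *Clcn5* (0.822). Over the 8 group means, which follow age and genotype, *Ngfr* was most like *Gjd4* (0.997), *Zfp580* (0.996), *Prelid1* (0.996), *Anks6* (0.996) and *Tspyl3* (0.994), the genes most like *Mbp* included *Fa2h* (0.994), *Ugt8a* (0.992), *Ncmap* (0.978) and *Tmem185b* (0.978), and *Prx* was most like *Cldn19* (0.971), *Smarce1-ps1* (0.962), *Mal* (0.959), *Mag* (0.957) and *Smco3* (0.950). On the same measure *Sox10* was most like *Gal3st1* (0.995), *St6gal1* (0.990), *Clic4* (0.990), *Fip1l1* (0.983) and *Egfl8* (0.982). The genes most like *Pmp22* included *Myl2* (0.951), *Mgat3* (0.929), *Gypc* (0.928) and *Smarce1-ps1* (0.919), and *S100b* was most like *Gar1* (0.957), *Arl8a* (0.951), *Agtrap* (0.951), *Fam207a* (0.942) and *Tmem237* (0.939).

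Summed marker lists showed which other cells varied with the 5 genes. The summed CPM of 4 perineurial genes, which mark the sheath around nerve bundles, correlated with them at r of 0.681 to 0.748 over the 32 libraries, and the 6 adipocyte genes at 0.285 to 0.441. The 6 muscle fibre genes had r of -0.302 to -0.523, and the 6 endothelial genes of 0.00977 to 0.143. For *Ngfr* the perineurial list had r of -0.0784.

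KO library 4 at P1, the lowest of its group for *Sox10*, *Ngfr*, *Pmp22*, *Mbp* and *Prx*, also held axon markers at 26.9 CPM, against 3.43 to 4.19 CPM in the other KO libraries. The part of this in the P1 values was not tested. Without that library the P1 log2 fold change of *Sox10* was 0.0049 and that of *Pmp22* 0.020.

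Of 13 other myelin sheath genes, 9 were called higher from P1 to P14 in WT and 10 in KO, and 0 lower. Over all genes tested, 4304 of 17435 were called higher in WT and 4168 of 17719 in KO, within the 55.1% and 52.6% called in either direction. The median log2 fold changes were 1.00 and 1.85, where the medians of all genes were -0.08 and -0.09. At P35 all 13 had a higher mean in KO, with a median log2 fold change of 1.45 against 0.04 over all genes, yet 0 of 13 were called by edgeR. At that age edgeR called 16% of all genes. Adjusted *P*-values by edgeR's quasi-likelihood test were 0.0102 for *Cnp* (log2 fold change 0.90), which encodes a protein of uncompacted myelin, 0.0286 for *Ncmap* (1.83) and 0.0372 for *Gjb1* (1.45), a gap junction protein of Schwann cells.

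Genes of the node of Ranvier and of axon contact included 2 of 6 called higher at P35, with a list median of 1.4. Over all 15595 genes tested at P35, 1324 were called higher and 1172 lower, 16% in either direction. These were *Nrcam* (log2 fold change 2.01 ± 0.46, adjusted *P*=0.00721 by edgeR's quasi-likelihood test) and *Cntn2* (2.03 ± 0.49, adjusted *P*=0.00945), cell adhesion molecules of the axon and glia. *Gldn* (1.6, adjusted *P*=0.0344 by edgeR) and *Cadm4* (1.14, adjusted *P*=0.0420) were not called. Leaving out 1 library ended the call of *Nrcam* in 6 of 8 cases and that of *Cntn2* in 7.

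Of the transcription regulators of Schwann cells, 4 of the 6 tested were called higher at P35 and 0 lower, with a median of 1.33. Over all genes at that age, 16% were called in either direction. *Egr2*, which drives the myelin programme with its partner *Nab2*, was at 9.55 to 18.8 CPM in KO and 1.18 to 2.64 CPM in WT. Its log2 fold change was 2.85 ± 0.30 (adjusted *P*=0.000177 by edgeR's quasi-likelihood test) and that of *Nab2* was 2.09 ± 0.25 (adjusted *P*=0.000317). *Pou3f1* (1.4, adjusted *P*=0.00486 by edgeR) and *Foxd3* (1.26, adjusted *P*=0.00740) were also called, but lost the call in 4 and 6 of the 8 fits that left out 1 library. *Nab2* was called at P21 as well (1.58 ± 0.24, adjusted *P*=0.00244 by edgeR), and the genotype difference of *Egr2* grew from P21 to P35 by 2.18 ± 0.35 (adjusted *P*=0.00109 by edgeR's test of the interaction). Members of these lists are also transcribed by cells other than Schwann cells, muscle fibres included, and the source of their RNA cannot be told apart in whole muscle.

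Among genes of axon to Schwann cell signalling, 2 of 10 tested were called higher and 2 lower at P35, with a median of 0.17. The share of all genes called at P35 was 16% in either direction. *Erbb2*, a coreceptor for neuregulin, was higher by 1.29 ± 0.10 (adjusted *P*=5.61e-05 by edgeR's quasi-likelihood test) and *Lgi4*, a secreted Schwann cell factor, by 0.99 ± 0.17 (adjusted *P*=0.0015). Both were also called at P21, at 0.72 and 0.76. *Adam22*, the receptor of LGI4, stood at -0.88 ± 0.17 (adjusted *P*=0.00311 by edgeR) and *Itga6*, a laminin receptor subunit, at -0.65 ± 0.14 (adjusted *P*=0.00465). Leaving out WT or KO library 3 ended the call of *Adam22*, and 6 of the 8 single libraries that of *Itga6*. With library totals both lost it, at -0.48 and -0.25, where the median of all genes moved from 0.04 to 0.44.

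Of the genes of immature, non-myelinating and repair Schwann cells, 1 of 10 tested was called at P35, *Ncam1* (1.91 ± 0.19, adjusted *P*=0.000136 by edgeR's quasi-likelihood test), an adhesion molecule that denervated muscle fibres also make. The list median was 0.66, and 16% of all genes were called at P35 in either direction. *Runx2* (1.59, adjusted *P*=0.0272 by edgeR) and *Tnc* (1.09, adjusted *P*=0.0559) at P35, and *Gdnf* (1.5, adjusted *P*=0.0186) at P21, were not called. From P1 to P14, 8 of 14 were called lower in each genotype, with 1 called higher in WT and 2 in KO and medians of -1.77 and -1.66. Over all genes tested, 5297 of 17435 were called lower in WT and 5160 of 17719 in KO, within the 55.1% and 52.6% called in either direction.

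The neurotrophins and their other receptors had 2 of 9 called higher and 1 lower at P35, with a median of 0.68. Among all genes at P35 the share called was 16% in either direction. *Lingo1*, a partner of p75 in the Nogo receptor complex, was higher by 1.72 ± 0.26 (adjusted *P*=0.000927 by edgeR's quasi-likelihood test), and *Ntrk2*, the receptor of BDNF, by 0.95 ± 0.21 (adjusted *P*=0.00596 by edgeR), a call lost in 5 of the 8 fits without 1 library. *Ntf5*, which encodes neurotrophin 4, fell by 1.13 on the log2 scale (adjusted *P*=0.00223 by edgeR), a call lost with library totals. *Sort1*, a coreceptor of p75 for proneurotrophins, stood at 0.49 at P21 (adjusted *P*=0.0184 by edgeR) and was not called.

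**Figure D4:**
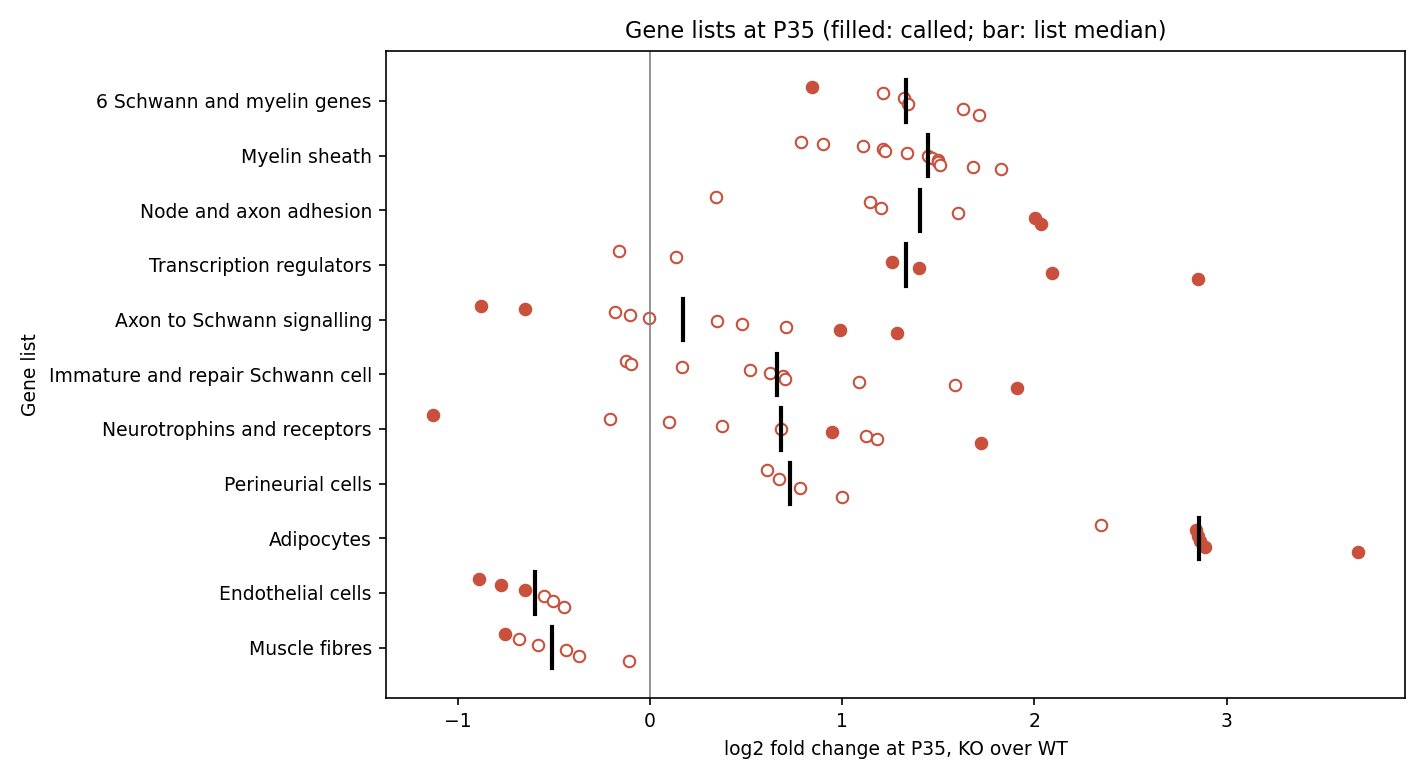
Log2 fold change of KO over WT at P35 for each gene tested, by list, with filled points for called genes and a bar at the list median. All 6 members and all 13 myelin sheath genes lie above 0 but 1 of these 19 is called, whereas 4 of 6 transcription regulators are. Over all genes tested at P35, 16% were called in either direction.

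Other cell markers moved with genotype at P35 and are given beside the members. Of 15595 genes tested at that age, 1324 were called higher and 1172 lower, 16% in either direction. The adipocyte list was called higher in 5 of 6 genes (median 2.85), with sums of 43.0 to 177 CPM in KO and 5.49 to 26.8 CPM in WT and *Adipoq* itself called. The immune cell list was called higher in 4 of 6 (sums of 98.4 to 159 CPM in KO and 66.4 to 78.4 CPM in WT). Endothelial and mural cell markers were each called lower in 3 of 6, the 4 perineurial genes had a median of 0.73 with 0 called, and the muscle fibre list had 1 of 6 called lower, with sums of 52920 to 70770 CPM in KO and 74490 to 106000 CPM in WT. The part of these shifts in the values of the 6 genes was not tested.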

How the data were processed

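RNAseq of TA muscle was analysed in 32 libraries, 4 per genotype and age, grouped by the sample labels. Neither labels nor methods say outright that the 4 libraries are separate mice, so *P*-values measure the spread between these libraries, which may be technical. The authors deposited RSEM expected counts per gene, made with STAR 2.6.1 and RSEM 1.2.22 on GRCm38 per the submitters' processing notes. The methods name HTSeq instead, and the strand setting of counting is not given in the sources used here. The methods describe extraction at P14, P21 and P35, not P1. The kit was a directional one after poly(A) selection. Values were rounded to whole numbers. Of the 54838 genes, 54723 had a symbol in GENCODE M21. Totals were 49321035 to 85631408 counts. Duplicate reads were not marked by molecular identifiers.

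KO and WT, and successive ages within a genotype, were compared pairwise in edgeR 4.0.16 (R 4.3.3) with filterByExpr, TMM scaling and the quasi-likelihood test, which is two-sided, and *P*-values were adjusted by Benjamini-Hochberg across every gene tested. Interactions used 1 fit of all 32 libraries and an adjusted *P*-value under 0.01. All ages shared 1 estimate of the spread in that fit, so an interaction SE is not the spread of its 2 ages alone. The procedure was tested on simulated data in which all genes and ages had the same spread. In the libraries the spread differed, with *Pmp22* varying 1.09-fold in WT at P1 and 3.78-fold in WT at P35. The simulation does not show how calls behave under such spread. Log2 CPM for correlations had a prior count of 2, and the plotted deviations had none. Alternatives were DESeq2 1.42.0, RLE size factors, library totals, no filter, at least 10 counts in every library, the replicate number as a block, other libraries in the fit, an adjusted *P*-value under 0.05, and leaving out each library. Same-numbered libraries of the genotypes deviated together at P14 (r of 0.19 to 0.588 per pair, mean 0.33), a pairing seen in the data only. Tables used python 3.11.15.

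The members and lists were chosen with earlier results of these data known. Named genes are the 6 members, *Mtm1*, up to 4 genes of each Schwann cell or neurotrophin list with the smallest adjusted *P*-value between genotypes, and the 5 genes most like each member, of which some are not reported here. *Dip2a*, *Gm15541* and the cell markers named were chosen after their values were seen.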

Additional observations from a re-analysis of the deposited data

Results flagged for a closer look

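In 2 of the 48 groups of 4 libraries formed by the 6 genes, 1 library stood apart from the rest by more than Dixon's 95% critical value for the gap over the range. For *Mbp* in WT at P14 the gap was 0.942 of the range, with library 2 at 127 CPM and the others at 70.4 to 73.6 CPM. For *Prx* in WT at P21 it was 0.941, with library 3 at 75.0 CPM and the others at 36.0 to 38.3 CPM. Chance gives such a gap in about 1 in 20 groups. In both libraries the other myelin members were high as well, with *Pmp22* at 189 CPM in the first and 193 CPM in the second. Without WT library 3 the P21 log2 fold change of *Prx* between genotypes was 0.28 in place of -0.03.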

How the results depend on the processing

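Of the alternatives to the KO and WT comparison at P35, where 1 member was called, 1 fit of all 32 libraries called 6, library totals 3, DESeq2 2 and an adjusted *P*-value under 0.05 3. The share of all genes called under each alternative, here and in the age steps below, is not given. The 16% at P35 belongs to the main edgeR fit. Leaving out 1 library gave 0 (without KO library 3) to 3 (without WT library 3). At P21, 0 members were called in edgeR and 1 with DESeq2, with library totals and with an adjusted *P*-value under 0.05. For age steps, WT P35 against P21 went from 0 to 1 with DESeq2 and with an adjusted *P*-value under 0.05. KO P21 against P14 went from 0 to 1 with DESeq2 and in the fit of all libraries, and to 2 with an adjusted *P*-value under 0.05. KO P35 against P21 went from 0 to 1 with DESeq2 and with an adjusted *P*-value under 0.05. WT P21 against P14 went from 0 to 1 in the fit of all libraries and with an adjusted *P*-value under 0.05, and WT P14 against P1 from 4 to 2 in the fit of all libraries. Omitting 1 library gave 0 to 1 for WT P21 against P14 (1 without WT P14 library 4), KO P21 against P14 (1 without KO P14 library 4) and KO P35 against P21 (1 without KO P35 library 4). The cause was not tested.

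With library totals, 6 log2 fold changes changed sign: *Pmp22* KO over WT at P1 to 0.019, *Prx* at P21 to 0.14, *Pmp22* WT P14 over P1 to -0.60, *Prx* in that step to -0.22, *S100b* WT P21 over P14 to -0.076 and *Pmp22* KO P14 over P1 to -0.067. With the replicate block *Prx* at P21 was 0.031 and *S100b* WT P21 over P14 -0.039, and the block added 1 call at P14 (*Ngfr*) and changed no other member's call, while at P35 *Cnp* gained one. For each pair of same-numbered libraries of the genotypes, r at P1 lay between -0.32 and -0.0018. It lay between -0.0079 and 0.187 for P21, and between -0.0802 and 0.168 for P35. Whether such libraries also shared a handling step is not stated by the labels, and these correlations cannot decide it.

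Without 1 library the sign of small differences varied. KO over WT at P1 ran from -0.039 to 0.020 for *Pmp22* and -0.26 to 0.0049 for *Sox10*. At P21 it ran from -0.012 to 0.41 for *Pmp22*, -0.055 to 0.51 for *Mbp*, -0.14 to 0.28 for *Prx* and -0.13 to 0.48 for *S100b*, the highest without WT library 3 each time. WT P21 over P14 ran from -0.56 to 0.084 for *Mbp*, -0.35 to 0.12 for *Prx* and -0.33 to 0.28 for *S100b*. *S100b* ran from -0.96 to 0.0022 for WT P35 over P21 and -0.31 to 0.090 for KO P14 over P1, and *Sox10* from -0.10 to 0.37 for KO P35 over P21. The change of the genotype difference from P14 to P21 ran from -0.11 to 0.28 for *Ngfr*, -0.58 to 0.072 for *Mbp* and -0.60 to 0.0012 for *S100b*. Library omission aside, 27 values of single members gained a call, 4 lost it, 8 changed sign and the rest kept direction and side of the threshold.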
